A study of Mus musculus with 12 samples.

Results

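The spliceosome removes introns from pre-mRNA and is rebuilt on each intron from 5 small nuclear ribonucleoproteins (snRNPs) and many further proteins. Described here are 42 of its core protein genes, out of 38215 genes in the count table of the series. They were listed by name, for their known place in the machine: proteins of the U1, U2, U4/U6 and U5 snRNPs, the Sm proteins that most snRNPs share, the Prp19 complex (NTC) with the intron-binding complex, the RNA helicases that drive each step, and 2 factors of the second catalytic step. The list was drawn up with earlier results of these data known. All 42 passed the filter on low counts. The cells were RAW264.7, an established mouse macrophage line. They received control siRNA or siRNA against Sf3a1, a subunit of the SF3a complex of the U2 snRNP that does not itself belong to the 42 genes, and 24 hours later they were left without LPS or given 20 ng/ml LPS for 4 hours. LPS, from the envelope of Gram-negative bacteria, is sensed by macrophages through TLR4. Each of the 4 combinations of siRNA and LPS had 3 libraries, which the submitters call biological replicates, and replicate 1 of each combination was read in 2 sequencing runs. All groups were nucleofected with an siRNA, so the data hold no cells without one.

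The snRNPs act in a fixed order. U1 pairs with the 5′ splice site and U2, with its SF3a and SF3b complexes, with the branch point, after which the tri-snRNP of U4, U6 and U5 joins. The helicases then unwind U4 from U6, release U1 and U4, and, with the NTC in place, drive the rearrangements that bring about the 2 catalytic steps and take the machine apart. The pre-mRNAs of splicing factors are spliced by this same machinery, and several are known to have alternative exons or retained introns.

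Polyadenylated RNA was sequenced, and the libraries held from 12746019 to 41091887 reads assigned to genes. The 42 genes held 0.527 to 0.69% of them. Reads that the counting placed on no gene made up 17.8 to 19.8% in the control siRNA libraries. After SF3a1 siRNA they made up 18.2 to 27.2%, highest in replicate 1 without LPS. They can include reads in introns, and where they lie was not tested. Levels are given as CPM, the read count scaled to a common library total with the TMM factors of edgeR. Fold changes are log2, SF3a1 siRNA over control siRNA or LPS over no LPS, ± standard error, from the quasi-likelihood model of edgeR fitted to the 12 libraries together. Genes with an adjusted p of up to 0.1 count as called (Benjamini-Hochberg over all 14983 genes tested). In RNA from whole cultures, fewer cells of a kind and less RNA per cell cannot be told apart.

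The labels were checked first. Sf3a1 (ENSMUSG00000002129, chr11:4160350-4182541 of mm10, forward strand) was at 173, 216 and 185 CPM with control siRNA without LPS and at 27.1, 27.5 and 32.1 CPM with SF3a1 siRNA. With LPS these values were 150, 194 and 157 CPM and 30.3, 26.7 and 45.0 CPM, so the SF3a1 siRNA libraries lay below the control siRNA libraries without overlap under both conditions. The macrophage genes Csf1r, Cd68, Adgre1, Lyz2, Itgam, Cd14, Spi1 and Fcgr1 were detected throughout, 8 of 8 passed the filter, and they summed to between 9747 and 16363 CPM in a library, with Lyz2 the most abundant. That sum was 9747 to 11105 CPM with control siRNA without LPS and 12680 to 13898 CPM with SF3a1 siRNA without LPS. Its part in the results below was not tested. The 3 markers each of T cells, B cells, fibroblasts and epithelial cells summed to at most 0.363 CPM in any library, and none passed the filter. The cytokine gene Tnf was higher with LPS than without it in control siRNA cells (log2 5.35, adjusted p = 5.08e-06).

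Within each group, replicate 1 stood apart for some of these genes. It was the lowest of the 3 libraries in all 4 groups for 13 of the 42 genes, among them 6 of 7 Sm ring genes and both U2 genes. For Snrpf, which encodes the F protein of the Sm ring, its level was 0.36 to 0.51 of the mean of the other libraries of the group. For Dhx38, Dhx16 and Snrpa replicate 1 was the highest library in all 4 groups, and for Dhx38 it was 1.21 to 1.55 times the mean of the others. Without the replicate 1 libraries, an alternative chosen after seeing the data, the numbers of genes called in the comparisons below were 18 without LPS and 17 with LPS for SF3a1 siRNA, 4 and 1 for LPS, and 0 for the difference between the SF3a1 effects. Over all 14841 genes tested in that fit, the numbers in the same order were 6135, 6700, 5135, 2238 and 1012. The genes were not all the same: Prpf8 was lost and Snrpd1 gained for SF3a1 siRNA without LPS, Cdc40 lost and Eftud2 gained with LPS, and Luc7l lost and Luc7l3 gained for LPS with control siRNA.

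After SF3a1 siRNA the core spliceosome genes moved in both directions, with the helicase genes Dhx38, Dhx8, Ddx23 and Ddx46 higher and Prpf31, Bcas2, Isy1 and Sart1 lower. Without LPS, 18 of 42 were called (42.9%, against 33.8% of all genes tested). Of these, 10 were higher (23.8%, against 13.7%) and 8 lower (19%, against 20.1%). With LPS, 17 were called (40.5%, against 38.8%), 11 higher (26.2%, against 18.4%) and 6 lower (14.3%, against 20.4%). These shares were close to those of genes expressed at the same levels: of 7448 genes between 19.7 and 577 CPM, 40% were called without LPS and 46.1% with LPS. The changes were modest in size, with a median absolute log2 fold change of 0.26 without LPS and 0.30 with LPS, against 0.41 and 0.44 over all genes tested. The signed medians of the 42 genes were -0.07 without LPS and 0.17 with LPS, beside -0.02 and -0.04 over all genes.

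The comparisons without and with LPS share no library, but they come from the same fit and share its estimate of each gene's spread. Both called the same 15 genes, which is 83.3% of the 18 and 88.2% of the 17, and these had the same direction in both (9 higher, 6 lower). Over all genes tested, 3527 genes were called in both (69.6% and 60.6%), of which 119 had opposite directions. The fold changes had the same sign in 33 of the 42 genes (78.6%) and in 75.4% of all genes. A total of 20 genes were called in at least 1 of the comparisons and 22 in neither. In the plot of fold changes by role, the genes with the highest and lowest values stand out in the helicase, tri-snRNP and NTC groups.

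**Figure D1:**
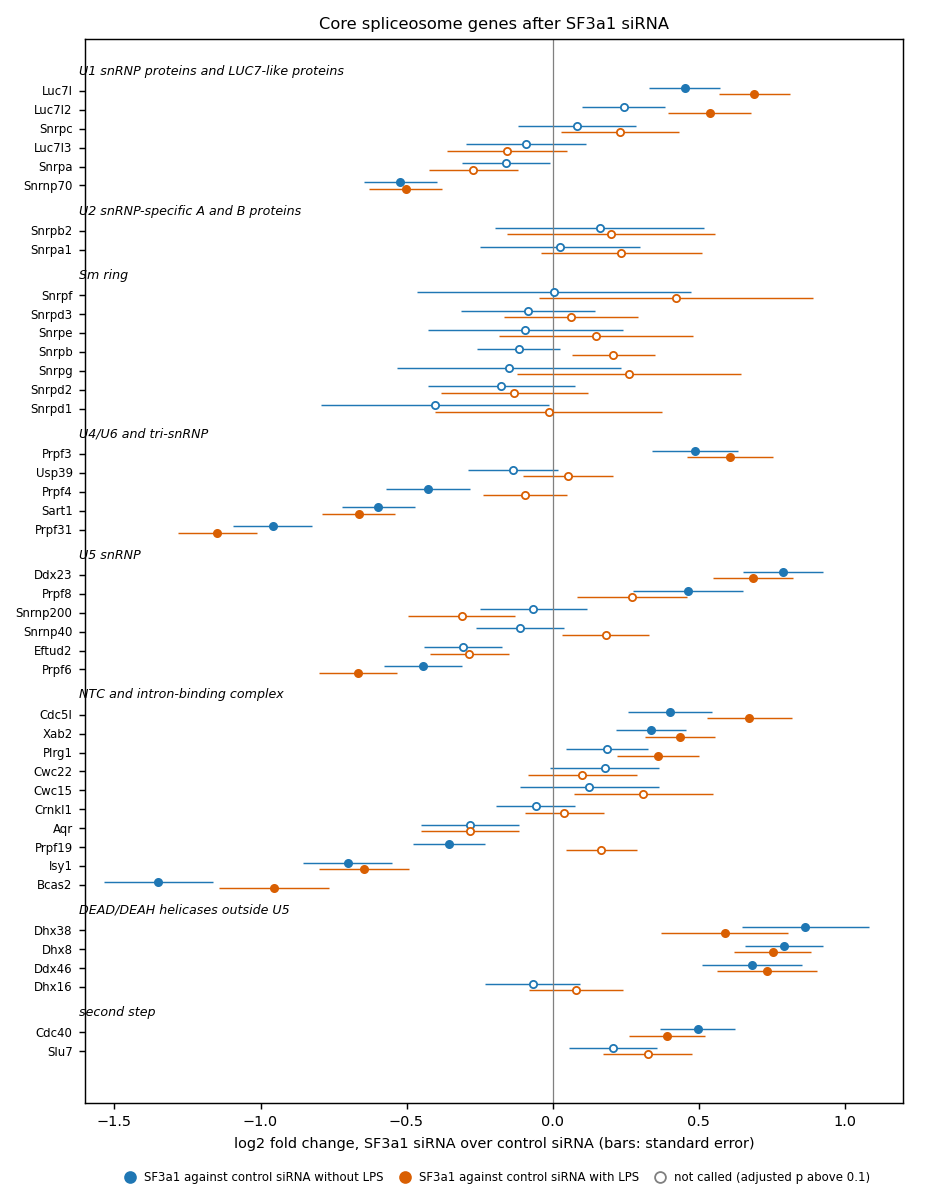
Log2 fold change of the 42 core spliceosome genes, SF3a1 siRNA over control siRNA, without LPS (blue) and with LPS (orange), grouped by role, with bars for the standard error and filled points for an adjusted p of 0.1 or less. Filled points run from -1.35 (Bcas2, without LPS) to 0.87 (Dhx38, without LPS), and none of the 7 Sm ring genes has a filled point.

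Reads were also counted on exon bins, the pieces of a gene between all annotated exon boundaries. For a bin, the test asks whether its share of the gene's bin counts differs, so a change of the whole gene does not count. A read over several bins is counted in each. These counts covered 11 libraries, since control siRNA with LPS replicate 3 was not analysed here at this level. Of 984 bins of the 42 genes, 858 were tested. After SF3a1 siRNA without LPS, 6 bins in 5 genes were called, which is 0.699% of the bins (0.626% over all 153624 bins) and 11.9% of the genes (6.16% over all 10609 genes). Of these bins 3 had a higher share (0.497% over all bins) and 3 a lower one (0.128%). With LPS, 6 bins in 5 genes were called again (0.496% of all bins and 5.06% of all genes), 3 higher (0.383%) and 3 lower (0.113%). The 42 genes had 20.4 tested bins on average and all genes 14.5. The comparisons shared 4 bins in 3 genes (66.7% of either list), and together they hold 8 bins in Luc7l, Luc7l2, Bcas2, Prpf31, Eftud2 and Snrnp200. With the replicate number in the model, 14 bins in 7 genes were called without LPS and 9 bins in 7 genes with LPS, adding Luc7l3 in both (bin 1 higher, and without LPS bin 10 lower, log2 change -1.44, adjusted p = 0.0457), Snrpa1 without LPS (bin 2, 2.34, 0.0133) and Dhx8 with LPS (bin 7, higher, adjusted p = 0.089). Over all 10609 genes that model raised the genes with a called bin from 653 to 1211 without LPS and from 537 to 1097 with LPS. Bin calls depended on single libraries: without control siRNA with LPS replicate 1, 0 genes had a called bin with LPS, and without replicate 2 or replicate 3 of control siRNA without LPS, 2 genes had one without LPS. Over all genes the numbers fell in these fits as well, to 80 of 10902 with LPS, and to 381 of 10574 and 386 of 10507 without LPS.

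Among the 4 helicases of the DEAD/DEAH type outside the U5 snRNP, the same 3 rose after SF3a1 siRNA in both conditions: Dhx38, Dhx8 and Ddx46. Aqr, a helicase grouped here with the intron-binding complex, was not called (log2 fold change -0.28 without LPS and -0.28 with LPS). Dhx38 (ENSMUSG00000037993), the homologue of yeast Prp16, remodels the spliceosome between the catalytic steps. Dhx38 was at 154, 130 and 121 CPM with control siRNA and 278, 230 and 229 CPM with SF3a1 siRNA, both without LPS, a 1.82-fold rise (log2 fold change 0.87 ± 0.22, adjusted p = 0.0107). With LPS the values were 216, 167 and 130 CPM with control siRNA and 337, 202 and 233 CPM with SF3a1 siRNA (log2 fold change 0.59 ± 0.22, adjusted p = 0.0572). The groups were separate without LPS and overlapped with LPS, where replicate 1 of each group was high. The call with LPS was lost without SF3a1 siRNA replicate 1 (log2 fold change 0.35, adjusted p = 0.25) and without control siRNA replicate 2 (adjusted p = 0.133) or 3 (0.195). Dhx8 (ENSMUSG00000034931, chr11:101732919-101767358), the homologue of Prp22, releases the spliced mRNA. Dhx8 was at 97.3, 94.0 and 94.3 CPM with control siRNA and 159, 164 and 172 CPM with SF3a1 siRNA, both without LPS, a 1.73-fold rise (log2 fold change 0.79 ± 0.13, adjusted p = 0.000909). With LPS, Dhx8 was at 108, 116 and 102 CPM with control siRNA and 184, 155 and 211 CPM with SF3a1 siRNA, a 1.69-fold rise (log2 fold change 0.75 ± 0.13, adjusted p = 0.00106), and the groups did not overlap in either condition. Ddx46 (ENSMUSG00000021500, chr13:55635027-55681256), the homologue of Prp5, acts with the U2 snRNP at the branch point. Ddx46 was at 163, 205 and 206 CPM with control siRNA and 265, 335 and 324 CPM with SF3a1 siRNA, both without LPS (log2 fold change 0.68 ± 0.17, adjusted p = 0.0104). With LPS, Ddx46 was at 128, 179 and 167 CPM with control siRNA and 252, 232 and 304 CPM with SF3a1 siRNA (log2 fold change 0.73 ± 0.17, adjusted p = 0.0062), again without overlap. Dhx16, the homologue of Prp2, which prepares the first catalytic step, was not called, at -0.07 without LPS and 0.08 with LPS.

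Of the 6 U5 snRNP genes, Ddx23 rose and Prpf6 fell in both conditions. Ddx23 (ENSMUSG00000003360, chr15:98645134-98662894), the homologue of Prp28, displaces U1 from the 5′ splice site. Ddx23 was at 244, 221 and 211 CPM with control siRNA and 395, 377 and 398 CPM with SF3a1 siRNA, both without LPS, a 1.73-fold rise (log2 fold change 0.79 ± 0.14, adjusted p = 0.00116). With LPS, Ddx23 was at 263, 269 and 225 CPM with control siRNA and 463, 351 and 404 CPM with SF3a1 siRNA, a 1.61-fold rise (log2 fold change 0.69 ± 0.14, adjusted p = 0.00237). Each SF3a1 siRNA library was above each control siRNA library. Prpf6 bridges U5 and U4/U6. Prpf6 was at 77.5, 88.5 and 79.1 CPM with control siRNA and 54.4, 63.5 and 62.2 CPM with SF3a1 siRNA, both without LPS, so it fell to 0.735 of the control level (log2 fold change -0.44 ± 0.13, adjusted p = 0.0257). With LPS, Prpf6 was at 81.6, 91.2 and 87.3 CPM with control siRNA and 53.1, 48.9 and 61.7 CPM with SF3a1 siRNA and fell to 0.63 (log2 fold change -0.67 ± 0.13, adjusted p = 0.00238), without overlap in either condition. Prpf8, the scaffold of the catalytic centre, was called higher without LPS (log2 fold change 0.46 ± 0.19, adjusted p = 0.0885), at 504, 566 and 441 CPM with control siRNA and 769, 666 and 650 CPM with SF3a1 siRNA, and not with LPS (log2 fold change 0.27 ± 0.19, adjusted p = 0.31). The difference between these effects was not called (log2 -0.19, adjusted p = 0.899). Snrnp40, a WD-repeat protein of U5, was not called in either condition. Without LPS, the Prpf6 call was lost without SF3a1 siRNA replicate 1 (adjusted p = 0.101) or control siRNA replicate 2 (0.192) or 3 (0.109), and the Prpf8 call without any 1 SF3a1 siRNA library (0.13 to 0.227) or control siRNA replicate 3 (0.153), or the replicate 1 libraries of all groups (0.222). With LPS, Prpf8 was called higher without SF3a1 siRNA replicate 2 (log2 fold change 0.47, adjusted p = 0.0452).

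Eftud2 and Snrnp200 were not called at the gene level, but each held a called bin. Eftud2 (ENSMUSG00000020929), the GTPase homologous to yeast Snu114, was at 360, 373 and 314 CPM with control siRNA and 303, 283 and 260 CPM with SF3a1 siRNA without LPS (log2 fold change -0.31 ± 0.13, adjusted p = 0.113). With LPS, Eftud2 was at 327, 376 and 312 CPM with control siRNA and 305, 253 and 276 CPM with SF3a1 siRNA (log2 fold change -0.28 ± 0.13, adjusted p = 0.129). The SF3a1 siRNA libraries lay below the control siRNA libraries in both conditions, and with the replicate number in the model both were called lower (adjusted p = 0.0456 without and 0.0588 with LPS), the latter also without the replicate 1 libraries of all groups (0.0669). Its bin 38 (chr11:102865970-102867845, reverse strand, 1876 nt, inside an intron and overlapping an exon of Gm26668 on the opposite strand) had counts of 7, 5 and 1 with control siRNA and 16, 16 and 7 with SF3a1 siRNA (log2 change 2.49, adjusted p = 0.0898), and was not called with LPS (adjusted p = 1). Snrnp200 (ENSMUSG00000003660), the Brr2 helicase that unwinds U4 from U6, was at 247, 280 and 230 CPM with control siRNA and 264, 228 and 231 CPM with SF3a1 siRNA without LPS (log2 fold change -0.07 ± 0.18, adjusted p = 0.841). With LPS, Snrnp200 was at 242, 281 and 220 CPM with control siRNA and 201, 147 and 251 CPM with SF3a1 siRNA (log2 fold change -0.31 ± 0.18, adjusted p = 0.229), and it was called lower without SF3a1 siRNA replicate 3 (log2 fold change -0.51, adjusted p = 0.0603). Its bin 51 (chr2:127238327-127238499, forward strand, 173 nt, in a retained intron) had counts of 3 and 1 in the control siRNA libraries with LPS and 10, 20 and 22 with SF3a1 siRNA (log2 change 3.74, adjusted p = 0.0169), and was not called without LPS (log2 change 1.81, adjusted p = 0.559). Both bins were at most 0.566% of the gene's bin counts in any library, so their changes rest on few reads. Limma-voom did not call the Snrnp200 bin with LPS (log2 change 3.03, adjusted p = 0.267). With 1 dispersion per gene the Snrnp200 bin was also called higher without LPS (log2 change 1.75, adjusted p = 0.0836). The Eftud2 bin was not called when any 1 library of the comparison other than SF3a1 siRNA replicate 1 was left out (adjusted p up to 0.664), nor without SF3a1 siRNA with LPS replicate 3 (0.103), which shares the fit. The Snrnp200 bin was not called without control siRNA with LPS replicate 1 (adjusted p = 0.777) or 2 (0.172) or SF3a1 siRNA with LPS replicate 2 (0.215), or the replicate 1 libraries of all groups (0.293).

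The U4/U6 and tri-snRNP genes split, with Prpf31 and Sart1 lower and Prpf3 higher in both conditions. Without LPS 4 of 5 were called (1 higher, 3 lower), and with LPS 3 of 5 (1 higher, 2 lower). Prpf31 (ENSMUSG00000008373, chr7:3629985-3642486, forward strand) encodes a U4/U6 protein that ties this snRNP to U5. Prpf31 was at 214, 266 and 227 CPM with control siRNA and 131, 116 and 116 CPM with SF3a1 siRNA, both without LPS, and so fell to 0.515 of the control level (log2 fold change -0.96 ± 0.14, adjusted p = 0.000305). With LPS, Prpf31 was at 263, 302 and 265 CPM with control siRNA and 137, 124 and 114 CPM with SF3a1 siRNA and fell to 0.451 (log2 fold change -1.15 ± 0.14, adjusted p = 8.81e-05), the lowest fold change among the 42 genes in that condition. The groups were far apart in both conditions, with the highest SF3a1 siRNA library at 137 CPM and the lowest control siRNA library at 214 CPM. An exon of Prpf31 overlaps an exon of a gene on the opposite strand, and whether counting used the strand is not stated. Sart1 (ENSMUSG00000039148) encodes the 110K protein of the tri-snRNP. Sart1 was at 125, 137 and 134 CPM with control siRNA and 87.5, 84.0 and 90.2 CPM with SF3a1 siRNA, both without LPS (log2 fold change -0.60 ± 0.13, adjusted p = 0.00379). With LPS, Sart1 was at 129, 153 and 126 CPM with control siRNA and 94.0, 79.5 and 83.0 CPM with SF3a1 siRNA (log2 fold change -0.66 ± 0.13, adjusted p = 0.00172), lower in every SF3a1 siRNA library under both conditions. Prpf3, a U4/U6 protein, was at 76.9, 94.3 and 84.3 CPM with control siRNA and 98.4, 127 and 133 CPM with SF3a1 siRNA without LPS (log2 fold change 0.49 ± 0.15, adjusted p = 0.0266). With LPS, Prpf3 was at 85.5, 100 and 94.8 CPM with control siRNA and 130, 145 and 152 CPM with SF3a1 siRNA (log2 fold change 0.61 ± 0.15, adjusted p = 0.0076), and the groups did not overlap. Its U4/U6 partner Prpf4 went the other way without LPS (log2 fold change -0.43 ± 0.14, adjusted p = 0.0431) and was not called with LPS (log2 fold change -0.09 ± 0.14, adjusted p = 0.677), a difference that was not called (adjusted p = 0.574). Usp39, the 65K tri-snRNP protein, was not called (-0.14 and 0.05). Without LPS, the Prpf3 call was lost without SF3a1 siRNA replicate 3 (adjusted p = 0.115), and the Prpf4 call without SF3a1 siRNA replicate 1 or 2 or control siRNA replicate 2 or 3 (0.125 to 0.293).

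Prpf31 also had intronic bins with a higher share of its counts after SF3a1 siRNA, in neighbouring introns near the start of the gene. Bin 8 (chr7:3630906-3631421, 516 nt) begins at the first base of an intron that an annotated transcript reads into. It was 3.06, 2.69 and 2.83% of the Prpf31 bin counts with control siRNA and 4.38, 5.54 and 5.20% with SF3a1 siRNA without LPS. With LPS, Prpf31 bin 8 was 2.50 and 2.16% in the control siRNA libraries and 6.36, 7.74 and 4.97% with SF3a1 siRNA. The groups were separate in both conditions, and the bin was called with LPS (log2 change 1.47, adjusted p = 0.0292) and not without it (log2 change 0.82, adjusted p = 0.673), where the model with the replicate number called it (log2 change 0.81, adjusted p = 0.0165). The counts behind these shares ran from 118 to 435. The call with LPS was lost without control siRNA replicate 1 (adjusted p = 0.416) or 2 (0.344) or SF3a1 siRNA replicate 2 (0.208). Bin 6 (chr7:3630743-3630747) is a 5-nt extension of an exon into the intron that follows it, in a transcript annotated for nonsense-mediated decay. It had counts of 9, 0 and 1 with control siRNA and 10, 6 and 8 with SF3a1 siRNA without LPS (log2 change 3.04, adjusted p = 0.0267), and was not called with LPS (log2 change 2.00, adjusted p = 0.811), nor without LPS when control siRNA replicate 2 (adjusted p = 0.45) or 3 (0.246) was left out. Without SF3a1 siRNA without LPS replicate 3 or SF3a1 siRNA with LPS replicate 1, bin 6 was not among the bins tested. The sequences at these places, from the GENCODE transcripts of mm10 (forward strand, 30 nt each), show the bases at which these bins begin. Capitals mark the 5-nt extension in the first, which opens with the bases GT, and the first bases of the intron of bin 8 in the second.
Prpf31 exon end and extension, chr7:3630718-3630747: tgccaagctatgggacagcaagatgGTGAG
Prpf31 start of the intron of bin 8, chr7:3630896-3630925: gtgtcggaagGTgcctcccaccctcacttt

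In the NTC and intron-binding complex, 5 of 10 genes were called without LPS (2 higher, 3 lower) and 5 with LPS (3 higher, 2 lower). The core of the NTC did not move as 1 unit: Bcas2 fell while Cdc5l rose in both conditions. Bcas2 (ENSMUSG00000005687, chr3:103171655-103179166, forward strand), a small core subunit also called SPF27, had the lowest fold change of the 42 genes without LPS. Bcas2 was at 92.1, 129 and 132 CPM with control siRNA and 39.6, 52.0 and 47.0 CPM with SF3a1 siRNA, both without LPS, which is 0.392 of the control level (log2 fold change -1.35 ± 0.19, adjusted p = 0.000288). With LPS, Bcas2 was at 62.2, 78.8 and 79.8 CPM with control siRNA and 31.5, 43.9 and 38.5 CPM with SF3a1 siRNA, 0.516 of the control level (log2 fold change -0.95 ± 0.19, adjusted p = 0.00213). No SF3a1 siRNA library reached the lowest control siRNA library. Cdc5l, the DNA- and RNA-binding core subunit, went up. Cdc5l was at 53.8, 65.3 and 68.8 CPM with control siRNA and 76.4, 89.2 and 82.7 CPM with SF3a1 siRNA, both without LPS, a 1.32-fold rise (log2 fold change 0.40 ± 0.14, adjusted p = 0.0574). With LPS, Cdc5l was at 42.5, 50.5 and 49.6 CPM with control siRNA and 73.4, 68.6 and 85.4 CPM with SF3a1 siRNA, a 1.6-fold rise (log2 fold change 0.67 ± 0.14, adjusted p = 0.00383), without overlap in either condition. Isy1 (ENSMUSG00000030056), which joins the NTC at the active site, fell. Isy1 was at 99.5, 122 and 119 CPM with control siRNA and 73.7, 65.1 and 70.2 CPM with SF3a1 siRNA, both without LPS (log2 fold change -0.70 ± 0.15, adjusted p = 0.00465). With LPS, Isy1 was at 105, 121 and 141 CPM with control siRNA and 85.8, 82.0 and 66.6 CPM with SF3a1 siRNA (log2 fold change -0.65 ± 0.15, adjusted p = 0.00659), again without overlap. Xab2, the homologue of yeast Syf1 and a scaffold of the complex, rose 1.26-fold without LPS and 1.35-fold with LPS. Xab2 was at 99.7, 92.3 and 84.3 CPM with control siRNA and 114, 109 and 126 CPM with SF3a1 siRNA, both without LPS (log2 fold change 0.34 ± 0.12, adjusted p = 0.0546). With LPS, Xab2 was at 81.5, 83.5 and 78.1 CPM with control siRNA and 111, 103 and 115 CPM with SF3a1 siRNA (log2 fold change 0.44 ± 0.12, adjusted p = 0.015), and the groups were close to each other but separate. Without LPS, the Cdc5l call was lost without SF3a1 siRNA replicate 2 (adjusted p = 0.165) or 3 (0.129), and the Xab2 call without SF3a1 siRNA replicate 3 (0.196).

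Prpf19, the ubiquitin ligase that gives the NTC its name, was lower without LPS (log2 fold change -0.35 ± 0.12, adjusted p = 0.0499) and not called with LPS (log2 fold change 0.17 ± 0.12, adjusted p = 0.342). It was at 346, 347 and 334 CPM with control siRNA and 269, 273 and 262 CPM with SF3a1 siRNA without LPS, and at 226, 287 and 258 and 302, 296 and 268 CPM with LPS, where the groups overlapped. The Prpf19 call without LPS was lost when any 1 of the 6 libraries of the comparison was left out (adjusted p 0.107 to 0.241), with DESeq2 size factors (0.108) and without the filter on low counts (0.236), and held in 12 of 20 alternatives. Plrg1, a WD-repeat core subunit, was called higher with LPS only (log2 fold change 0.36 ± 0.14, adjusted p = 0.0672, against log2 fold change 0.19 ± 0.14, adjusted p = 0.369 without LPS), and the difference was not called (adjusted p = 0.85). The Plrg1 call was lost without control siRNA with LPS replicate 1 (adjusted p = 0.104) or 2 (0.18) or SF3a1 siRNA with LPS replicate 2 (0.165). Crnkl1, Aqr (the helicase of the intron-binding complex), Cwc15 and Cwc22 (which loads the exon junction complex) were not called in either condition, with fold changes from -0.28 (Aqr) to 0.18 (Cwc22) without LPS. The model with the replicate number called Cwc15 higher with LPS (adjusted p = 0.043), and Aqr was called lower with LPS without SF3a1 siRNA replicate 3 (log2 fold change -0.46, against -0.28 with all libraries, adjusted p = 0.063).

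A retained-intron bin of Bcas2 rose in share in both conditions. Bin 13 (chr3:103174548-103175618, 1071 nt) lies in an intron that an annotated transcript keeps whole. It was 0.5, 0.487 and 0.287% of the Bcas2 bin counts with control siRNA and 2.35, 1.92 and 1.69% with SF3a1 siRNA without LPS (log2 change 2.25, adjusted p = 0.0359). With LPS, Bcas2 bin 13 was 0.404 and 0.329% with control siRNA and 2.87, 2.42 and 2.67% with SF3a1 siRNA (log2 change 2.81, adjusted p = 0.0406), so all SF3a1 siRNA libraries exceeded all control siRNA libraries. The call without LPS was lost without SF3a1 siRNA replicate 1 or 2 or control siRNA replicate 2 or 3 (adjusted p 0.155 to 0.272), and that with LPS without control siRNA replicate 1 or 2 or SF3a1 siRNA replicate 3 (0.157 to 0.772), or the replicate 1 libraries of all groups (0.206). Limma-voom did not call Bcas2 bin 13 with LPS (log2 change 2.69, adjusted p = 0.206). With LPS, the model with the replicate number also called Bcas2 bin 15 higher (log2 change 1.86, adjusted p = 0.00026). The bin 13 counts themselves were 36, 21 and 13 and 43, 26 and 15 without LPS in libraries of unequal depth. Over the 4 retained-intron bins of Bcas2 together, the share was 2.73 ± 0.293% (SD, n = 3) with control siRNA and 7.21 ± 0.719% (SD, n = 3) with SF3a1 siRNA without LPS, and with LPS 2.42 ± 0.493% (SD, n = 2) and 8.68 ± 0.537% (SD, n = 3). The ends of the intron, in the same annotation (forward strand), are shown because the called bin lies between them. Capitals mark its first and last bases.
Bcas2 start of the retained intron, chr3:103174492-103174521: tgtacaatgaGTaagaggcgctgggccttc
Bcas2 end of the retained intron, chr3:103175592-103175621: ggtgcctgtgcgttcttccttctttAGaaa

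Retained introns were also looked at over all 42 genes. Of 38 tested retained-intron bins in 16 of them, 19 (50%) had a positive log2 change without LPS and 23 (60.5%) with LPS. Over all genes, 66.5% and 61.7% of 4230 such bins did. Summed shares did not rise in every gene as in Bcas2. In Snrpa1 the share was 8.29 ± 0.405% with control siRNA and 5.84 ± 0.705% with SF3a1 siRNA without LPS (SD, n = 3 each). With LPS it was 7.59 ± 0.645% (SD, n = 2) and 6.05 ± 0.996% (SD, n = 3). In Luc7l3 the means were 9% and 7.16% without LPS, and 5.7% and 6.55% with LPS.

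In the U1 group, Luc7l rose and Snrnp70 fell in both conditions. Without LPS 2 of 6 genes were called (1 higher, 1 lower), and with LPS 3 of 6 (2 higher, 1 lower). Luc7l and Luc7l2 are relatives of yeast Luc7, a U1-associated protein that takes part in the choice of 5′ splice sites. Luc7l (ENSMUSG00000024188, chr17:26252896-26285504) rose. Luc7l was at 106, 94.6 and 97.0 CPM with control siRNA and 130, 140 and 138 CPM with SF3a1 siRNA, both without LPS, a 1.37-fold rise (log2 fold change 0.45 ± 0.12, adjusted p = 0.0155). With LPS, Luc7l was at 131, 119 and 119 CPM with control siRNA and 199, 219 and 178 CPM with SF3a1 siRNA, a 1.61-fold rise (log2 fold change 0.69 ± 0.12, adjusted p = 0.00111), and the 3 SF3a1 siRNA libraries with LPS were the highest of the 12. Luc7l2 (ENSMUSG00000029823, chr6:38551334-38609470, forward strand) was at 124, 131 and 117 CPM with control siRNA and 152, 161 and 126 CPM with SF3a1 siRNA without LPS (log2 fold change 0.24 ± 0.14, adjusted p = 0.242). With LPS, Luc7l2 was at 108, 101 and 115 CPM with control siRNA and 183, 137 and 150 CPM with SF3a1 siRNA, a rise that was called (log2 fold change 0.54 ± 0.14, adjusted p = 0.0128). The difference between the conditions was not called (adjusted p = 0.643). Snrnp70 encodes the 70K protein that binds U1 RNA. Snrnp70 was at 337, 353 and 325 CPM with control siRNA and 246, 249 and 213 CPM with SF3a1 siRNA, both without LPS, so it fell to 0.696 of the control level (log2 fold change -0.52 ± 0.12, adjusted p = 0.00823). With LPS, Snrnp70 was at 381, 412 and 357 CPM with control siRNA and 276, 291 and 245 CPM with SF3a1 siRNA (log2 fold change -0.50 ± 0.12, adjusted p = 0.009), and every SF3a1 siRNA library was below every control siRNA library. The U1 protein genes Snrpa and Snrpc and the third LUC7-like gene, Luc7l3, were not called in either condition, at -0.16, 0.08 and -0.09 without LPS. The model with the replicate number called Snrpa lower with LPS (adjusted p = 0.0591).

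The 3 called bins of Luc7l and Luc7l2 had a lower share after SF3a1 siRNA. Without LPS, the model with the replicate number also called Luc7l2 bins 21 (log2 change -2.72, adjusted p = 0.021) and 36 (-0.99, 0.00729) and Luc7l bin 13 (-2.17, 0.0942) lower, and Luc7l2 bin 34 higher (0.80, 0.0201). Bin 31 of Luc7l2 (chr6:38598785-38598814) is a cassette exon of 30 nt, present in 3 of 13 annotated transcripts and coding in 2 of these. It was 3.18, 3.19 and 2.75% of the Luc7l2 bin counts with control siRNA and 0.451, 0.434 and 0.742% with SF3a1 siRNA without LPS (log2 change -2.56, adjusted p = 0.00053). With LPS, Luc7l2 bin 31 was 2.15 and 2.79% with control siRNA and 0.726, 0.479 and 0.762% with SF3a1 siRNA (log2 change -1.87, adjusted p = 0.0895), and the groups were far apart in both conditions. The exon is printed in full, in capitals, from the GENCODE transcripts of mm10 (forward strand), since the bin has the smallest adjusted p of the 858 bins without LPS.
Luc7l2 cassette exon, chr6:38598785-38598814: GTCCCGATCACATAGCAAGAATCCCAAAAG
In Luc7l, bin 31 was 15.4, 15.4 and 13.3% of the bin counts with control siRNA and 6.37, 5.21 and 5.14% with SF3a1 siRNA without LPS (log2 change -1.41, adjusted p = 0.0037). With LPS, Luc7l bin 31 was 7.69 and 11.6% with control siRNA and 4.32, 3.03 and 4.94% with SF3a1 siRNA (log2 change -1.25, adjusted p = 0.0651). Bin 28 was 4.12, 4.80 and 4.45% with control siRNA and 1.94, 1.23 and 1.93% with SF3a1 siRNA without LPS (log2 change -1.39, adjusted p = 0.0238), and 4.06 and 3.85% with control siRNA and 1.63, 0.917 and 1.36% with SF3a1 siRNA with LPS (log2 change -1.65, adjusted p = 0.00963). In these bins, too, no SF3a1 siRNA library reached a control siRNA library of the same condition. Without LPS, both bins 31 were called whichever library was left out, and Luc7l bin 28 was lost without SF3a1 siRNA replicate 2 (adjusted p = 0.468) or control siRNA replicate 2 (0.168) or 3 (0.114). With LPS, all 3 bins were lost without control siRNA replicate 1 or SF3a1 siRNA replicate 2, and both bins 31 also without control siRNA replicate 2 or SF3a1 siRNA replicate 3 (adjusted p 0.127 to 0.676 over these losses). They were lost as well without SF3a1 siRNA without LPS replicate 3 or control siRNA without LPS replicate 2, which share the fit, and Luc7l2 bin 31 without control siRNA without LPS replicate 3 (0.102 to 0.146). With 1 dispersion per gene, Luc7l bin 28 was lost without LPS (adjusted p = 0.112). With LPS, both bins 31 were lost in that setting (adjusted p = 0.331 in Luc7l and 0.108 in Luc7l2). Limma-voom did not call Luc7l2 bin 31 with LPS (adjusted p = 0.205). The bins of Luc7l could not be matched to coordinates, as was the case for 3 of the 42 genes. For none of the 8 bins was the difference between the conditions called (adjusted p = 1 each).

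**Figure D2:**
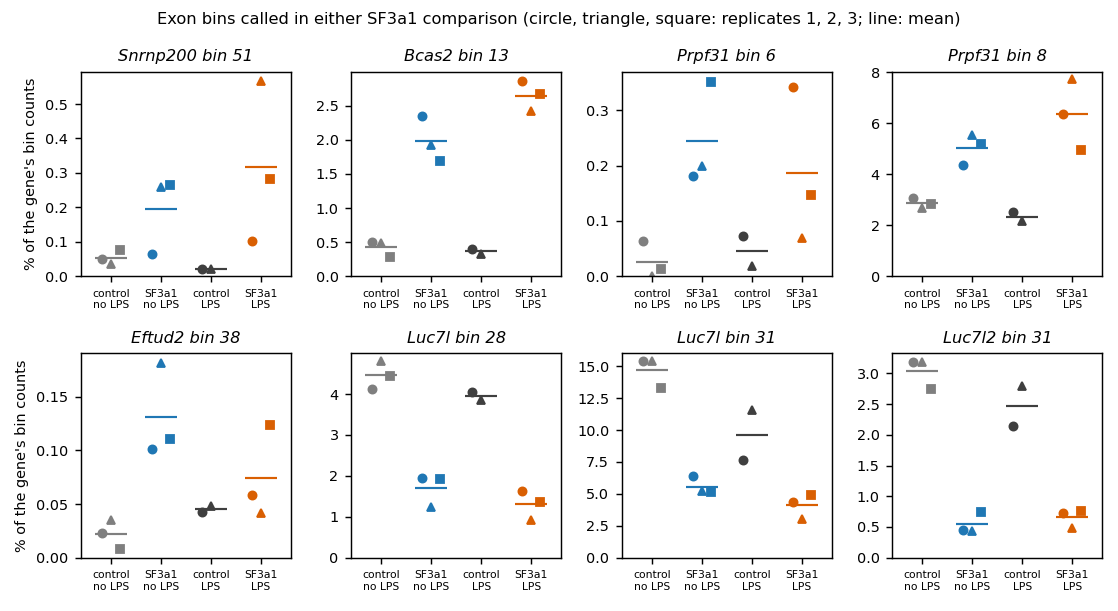
Share of each gene's exon bin counts (in %) in the 8 called bins, by group, with circle, triangle and square for replicates 1, 2 and 3 and a line for the mean (control siRNA with LPS has 2 libraries). The 3 LUC7-like bins lie lower with SF3a1 siRNA, as in Luc7l2 bin 31 from 2.75 to 3.19% down to 0.434 to 0.742% without LPS, and the other 5 lie higher on average, as in Bcas2 bin 13.

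Of the second-step factors, Cdc40, the homologue of yeast Prp17, rose in both conditions. Cdc40 was at 48.3, 52.8 and 50.7 CPM with control siRNA and 67.1, 77.7 and 69.4 CPM with SF3a1 siRNA, both without LPS (log2 fold change 0.50 ± 0.13, adjusted p = 0.0127). With LPS, Cdc40 was at 52.7, 57.5 and 62.7 CPM with control siRNA and 78.8, 67.5 and 80.3 CPM with SF3a1 siRNA (log2 fold change 0.39 ± 0.13, adjusted p = 0.0362), without overlap in either condition. The Cdc40 call with LPS was lost without SF3a1 siRNA replicate 3 (adjusted p = 0.104), without the replicate 1 libraries of all groups (0.133) and without the filter on low counts (0.188). Slu7, which helps select the 3′ splice site, was at 0.21 and 0.33 and was not called. Other settings called Slu7 higher with LPS: the model with the replicate number (adjusted p = 0.0514), DESeq2 (0.0815), and the fits without SF3a1 siRNA with LPS replicate 2 (0.0686) or control siRNA without LPS replicate 1 (0.0747) or 3 (0.0992).

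None of the 7 Sm ring genes and neither U2 gene was called in either SF3a1 comparison, and none had an unadjusted p below 0.05 there. DESeq2 and limma-voom called none of these 9 genes either, and the model with the replicate number called Snrpd1 lower without LPS (adjusted p = 0.0726), as did the fit without the replicate 1 libraries of all groups (0.0887). Snrpb was called higher with LPS without SF3a1 siRNA with LPS replicate 3 (log2 fold change 0.34, adjusted p = 0.0806). Fold changes of the Sm ring ran from -0.40 (Snrpd1) to 0.00 (Snrpf) without LPS and from -0.13 (Snrpd2) to 0.42 (Snrpf) with LPS. Snrpa1 and Snrpb2, of the U2 A′ and B″ proteins, were at 0.03 and 0.16 without LPS and 0.24 and 0.20 with LPS. Standard errors in the Sm ring ran from 0.14 (Snrpb) to 0.47 (Snrpf), against 0.13 (Dhx8) to 0.22 (Dhx38) in the helicases above. Snrpb, the Sm gene whose replicate 1 was not the lowest library in every group, had fold changes of -0.12 and 0.21. Per kb of exon, Snrpb was also the highest of the 42 genes in control siRNA cells without LPS, at 287 ± 18.1 CPM per kb (SD, n = 3). Snrnp70 followed at 195 ± 8.05 CPM per kb, and Snrpc was the lowest, at 5.41 ± 0.84 CPM per kb. The length joins the exons of the annotated transcripts of a gene, with 6107 nt for Snrpc and 861 nt for Snrpf. This order therefore depends on the annotation and does not rank the abundance of single transcripts. Only uniquely mapping reads were counted, so genes with near-identical copies in the genome, as small genes of this kind can have, may be undercounted.

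**Figure D3:**
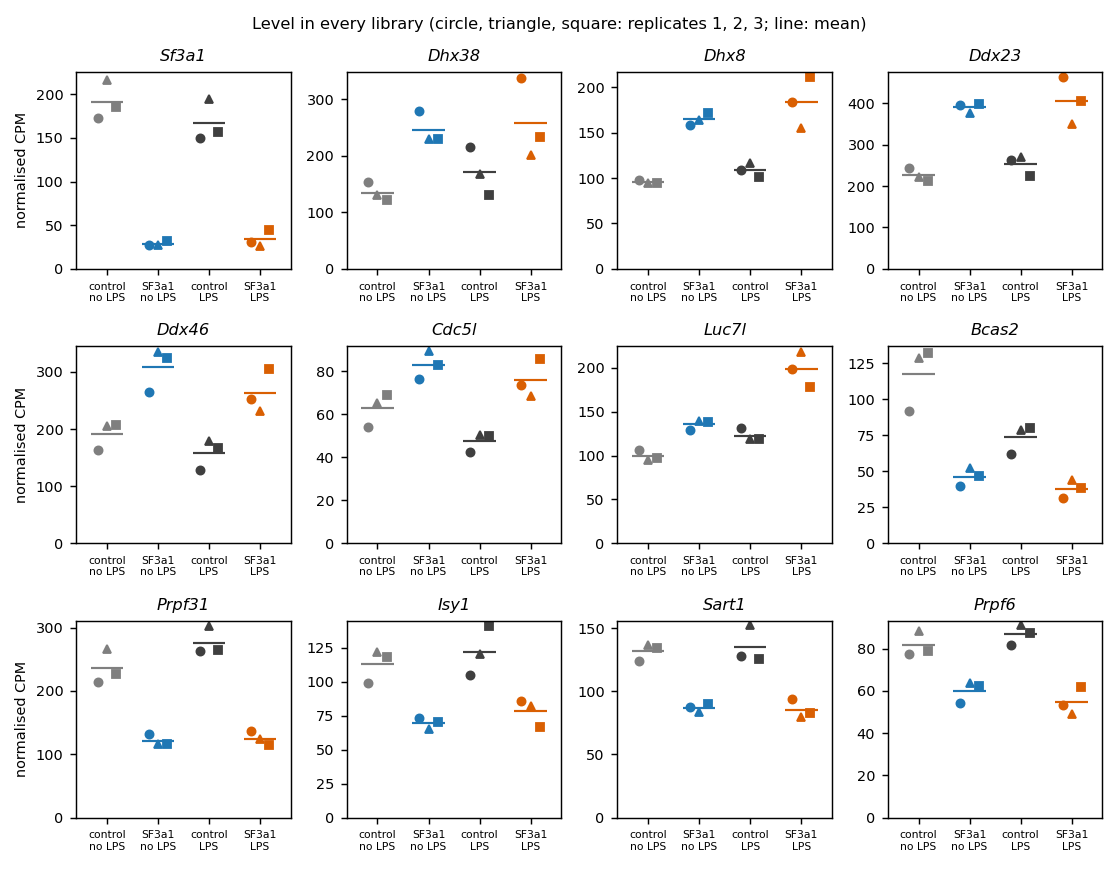
Normalised CPM in each of the 12 libraries for Sf3a1 and 11 core spliceosome genes, with circle, triangle and square for replicates 1, 2 and 3 and a line for the group mean. In the helicase genes, Cdc5l and Luc7l the SF3a1 siRNA groups lie above the control siRNA groups (overlapping for Dhx38 with LPS), and in Sf3a1, Bcas2, Prpf31, Isy1, Sart1 and Prpf6 they lie below.

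The SF3a1 effects were compared between the conditions by the interaction term of the same model. It was called for 0 of 42 genes, beside 3.47% of all genes tested, and 1 gene had an unadjusted p below 0.05. That gene was Prpf19 (log2 difference 0.52 ± 0.17, adjusted p = 0.172). It was called with the replicate number in the model (0.52, adjusted p = 0.0556) and by DESeq2 (0.47, adjusted p = 0.0907), and limma-voom called none.

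LPS itself changed few of the core spliceosome genes. With control siRNA, 4 of 42 were called (9.52%; 1 higher, against 13.8% of all genes tested, and 3 lower, against 18.3%), beside 32.1% of all genes tested and 36.6% of those in the same range of levels, and the median absolute log2 fold change was 0.17 against 0.37. Bcas2 fell (log2 fold change -0.68 ± 0.18, adjusted p = 0.0159), from 92.1, 129 and 132 CPM to 62.2, 78.8 and 79.8 CPM. Prpf19 and Cdc5l, its partners in the NTC, fell as well (log2 fold change -0.41 ± 0.12, adjusted p = 0.0245 and log2 fold change -0.40 ± 0.14, adjusted p = 0.0614). Luc7l was the 1 gene called higher (log2 fold change 0.31 ± 0.12, adjusted p = 0.0859), from 106, 94.6 and 97.0 CPM to 131, 119 and 119 CPM. Within each of these 4 genes the groups did not overlap. With the replicate number in the model 9 genes were called, adding Snrpa, Snrpb2, Dhx38, Ddx46 and Luc7l3, while over all 14983 genes tested the calls went from 4809 to 6571. Luc7l3 was also called higher by DESeq2 (adjusted p = 0.0825), with DESeq2 size factors (0.0974), without control siRNA with LPS replicate 1 (0.0513) and without the replicate 1 libraries of all groups (0.0394). Without control siRNA without LPS replicate 2 or replicate 3, 2 genes were called, Bcas2 and Prpf19, and over all genes 4043 of 15253 and 3985 of 15235. The Cdc5l call was also lost without control siRNA with LPS replicate 1 (adjusted p = 0.167), and the Luc7l call without any 1 library of control siRNA with LPS (0.117 to 0.197) or of SF3a1 siRNA without LPS (0.105 to 0.122). Bcas2 was the 1 gene called under every alternative.

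With SF3a1 siRNA, LPS changed 1 of 42 genes (2.38%, against 10.7% of all genes tested, 6.60% higher and 4.06% lower). Luc7l rose again, from 130, 140 and 138 CPM to 199, 219 and 178 CPM (log2 fold change 0.55 ± 0.12, adjusted p = 0.0153), with every LPS library above every library without LPS. Without SF3a1 siRNA with LPS replicate 3, 2 genes were called, the other being Snrpb of the Sm ring (log2 fold change 0.46, adjusted p = 0.0696). Bcas2 was at 39.6, 52.0 and 47.0 CPM and 31.5, 43.9 and 38.5 CPM (log2 fold change -0.28 ± 0.19, adjusted p = 0.484). The 7 Sm ring genes all had positive fold changes here, 0.24 to 0.47, and none was called with all libraries and no replicate number in the model. The model with the replicate number called 6 genes, adding Snrpa1, Snrpb2, Snrpb, Bcas2 and Luc7l3, while over all 14983 genes tested the calls went from 1598 to 3115. The LPS comparisons share their libraries with the SF3a1 comparisons, so their values stand side by side only. No exon bin of the 42 genes was called for LPS with control siRNA (0.0794% of all bins, 0.452% of all genes), with 13 of 858 at an unadjusted p below 0.05 and Luc7l called when 1 dispersion per gene was used, nor with SF3a1 siRNA (0.0254% of all bins, 0.104% of all genes), with 4. The plot of sorted fold changes shows the same contrast in extent between the 4 comparisons.

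**Figure D4:**
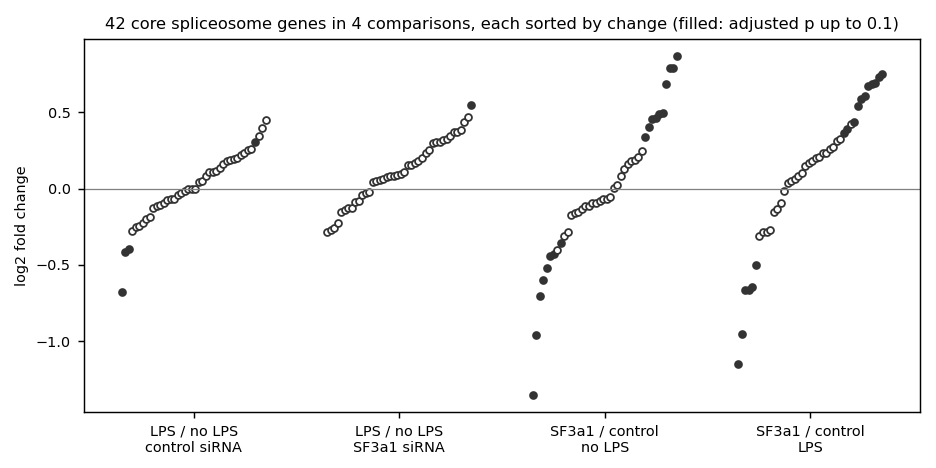
Log2 fold changes of the 42 core spliceosome genes in each of 4 comparisons, sorted within the comparison, with filled points for an adjusted p of 0.1 or less. The comparisons of LPS against no LPS hold 4 and 1 filled points, and those of SF3a1 against control siRNA 18 and 17.

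Other genes of the pathway were taken from a list of 56 further spliceosome genes, which includes the SF3a and SF3b complexes, the LSm ring and step-specific factors. All were tested. After SF3a1 siRNA without LPS, 19 were called (33.9%, against 33.8% of all genes tested), 5 higher and 14 lower, where 13.7% and 20.1% of all genes tested were. With LPS 20 were called (35.7%, against 38.8%), 8 higher and 12 lower, where 18.4% and 20.4% of all genes tested were. The list holds Sf3a1 itself, the target of the siRNA, with the lowest value in both. Next to it, Lsm2, of the LSm ring that binds U6 RNA, fell to a log2 fold change of -2.42 without LPS (adjusted p = 0.000212) and -1.90 with LPS (adjusted p = 0.00072). Ddx42, a helicase of the U2 snRNP, fell to -1.5 (adjusted p = 1.97e-05) and -1.42 (adjusted p = 2.02e-05). The largest rise was in Prpf39, a U1-associated protein, at 1.55 (adjusted p = 0.00144) and 1.54 (adjusted p = 0.00129). Txnl4a, the small Dim1 protein of U5, rose by 1.28 (adjusted p = 0.000101) and 1.31 (adjusted p = 6.87e-05). The third rise was Sf3b1, the largest SF3b subunit, without LPS (0.84, adjusted p = 0.000602), and Sf3b4, another SF3b subunit, with LPS (0.80, adjusted p = 0.00123). LPS with control siRNA changed 4 of the 56 (7.14%, against 32.1% of all genes tested; 3 higher, 1 lower) and LPS with SF3a1 siRNA 2 (3.57%, against 10.7%; both higher).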

How the data were processed

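The authors mapped single-end Ion Proton reads of at least 30 nt to mm10 with GSNAP (named in the submitters' processing notes) and kept uniquely mapping reads. They deposited the counts per gene made with htseq-count and the counts per exon bin made with DEXSeq's script, without normalization. The strand setting is not given in the sources used here. Reads not assigned to a gene were left out of library sizes. The members and gene lists were chosen with earlier results of these data known.

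Genes were filtered with filterByExpr, scaled by TMM and tested with edgeR 4.0.16 (quasi-likelihood, R 4.3.3) over all 12 libraries with 1 mean per group, with Benjamini-Hochberg adjustment at a rate of 0.1. Bins were tested with diffSpliceDGE in genes with at least 2 kept bins, over 11 libraries. Steps were tested on simulated data. Alternatives used DESeq2 1.42.0 and limma 3.58.1 (voom). Tables and figures were made in Python 3.11.15 with pandas 2.3.3, numpy 2.4.6 and matplotlib 3.10.9. P-values rest on the spread between libraries within groups, estimated over all groups together. In the main fits this spread includes what libraries with the same replicate number share. Values in every library are given for members called in both SF3a1 comparisons or holding a called bin. They are also given for Prpf19 and, without LPS, for Prpf8, and the rest are described by role class. Bins were matched to GENCODE vM21 (mm10) for 39 of 42 genes, and those of Cwc22 are joined with another gene. Exons of 10 members (Snrpa, Snrpd3, Snrpf, Prpf31, Eftud2, Cdc5l, Crnkl1, Xab2, Sart1 and Luc7l2) overlap an exon of a gene on the opposite strand and those of 3 (Snrpa1, Isy1 and Cwc22) on the same strand, so their counts are less certain.

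Libraries with the same replicate number deviated together from their group means (log2 CPM): over the 18 such pairs r was 0.135 to 0.681 (median 0.457), against -0.613 to -0.18 for a replicate 1 with another number. For a replicate 2 with a replicate 3 r was 0.049 to 0.448 (median 0.275). The pairing comes from these deviations and from the 2 sequencing runs of the replicate 1 libraries. A fit with the replicate number as a block is given where it changes a call.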

Additional observations from a re-analysis of the deposited data

How the results depend on the processing

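No gene or bin called in the main fits changed direction under the alternatives run for it. Of the genes called after SF3a1 siRNA, 10 of 18 without LPS and 13 of 17 with LPS were called under all 20 alternatives at the gene level. Without the filter on low counts, 11 genes were called without LPS (losing Luc7l, Prpf4, Prpf6, Prpf8, Prpf19, Cdc5l and Xab2, adjusted p 0.108 to 0.373) and 14 with LPS (losing Plrg1, Xab2 and Cdc40, 0.111 to 0.231), and over all 28638 genes 4772 and 5445. For LPS with control siRNA, 4 genes were called, 2 at an adjusted p of 0.05 (3925 over all genes), 1 without the filter (4727), 2 with the libraries of the comparison alone (4222), and 2 to 4 with a library left out (2 without control siRNA no LPS replicate 2 or 3). With the replicate number as a block this count was 9, that for LPS with SF3a1 siRNA went from 1 to 6, and that for the difference between the SF3a1 effects from 0 to 1, as it did with DESeq2. Over all 14983 genes these counts rose under the block as well, from 4809 to 6571, 1598 to 3115 and 520 to 1756. After SF3a1 siRNA the block called 20 of the 42 genes without LPS and 21 with LPS. Over all 14983 genes the calls after SF3a1 siRNA went from 5069 to 7053 without LPS and from 5818 to 7625 with LPS. The block kept every call made without it, and changed no call of these 42 genes other than those named above. LPS with SF3a1 siRNA gave 1 to 2 genes with a library left out (2 without SF3a1 siRNA LPS replicate 3). Genes with a called exon bin were less stable. Without LPS 2 of the 6 bins, in Luc7l and Luc7l2, were called under all 18 alternatives and with LPS 0 of 6. With a library left out, 2 to 5 genes had a called bin without LPS (2 without control siRNA no LPS replicate 2 or 3, 3 without SF3a1 siRNA no LPS replicate 2 or 3) and 0 to 6 with LPS (0 without control siRNA LPS replicate 1, 1 without control siRNA LPS replicate 2 or SF3a1 siRNA LPS replicate 2, 3 without SF3a1 siRNA LPS replicate 3), and over all genes 381 to 763 and 80 to 601. With limma-voom 2 genes had a called bin with LPS (462 over all genes), and with 1 dispersion per gene 1 gene had one for LPS with control siRNA (124 over all genes). The cause of these changes was not tested. Without the replicate 1 libraries of all groups, chosen after seeing the data, 6 genes had a called bin without LPS and 4 with LPS, and over all 10597 genes 922 and 495. Several called bins held fewer than 30 reads in a library. For bins, leaving out a control siRNA library with LPS left 1 in its group, assumed to vary like the other groups.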
